A study of Mus musculus with 12 samples.

Results

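The genes described here are 10 genes of matrix turnover, listed by name and not by their measured values: the matrix metalloproteinases Mmp2, Mmp3, Mmp9 and Mmp14, the tissue inhibitors of metalloproteinases Timp1, Timp2 and Timp3, and the lysyl oxidases Lox, Loxl1 and Loxl2. Each had 1 row on the array, and 9 of the 10 lay on a row annotated to 1 gene, out of 30142 such genes. The row of Loxl2 was also annotated to the microRNA gene Mir6950 and the predicted gene Gm21451. Its values therefore cannot be assigned to Loxl2 alone, and they were kept out of every count. Pancreas RNA of 12 mouse samples was measured on 1 Affymetrix array each. Controls were 6 Pdx1/Cre samples, the HuR group was 6 samples of Pdx1/Cre + Traffic-HuR, and every mouse was 6 months old. Cre, present in both groups, is driven by the promoter of Pdx1, a gene of the pancreatic epithelial lineages, and HuR is the RNA-binding protein encoded by Elavl1. The comparison asked how the genes that cut, protect and crosslink matrix differed between pancreas with the Traffic-HuR construct and control pancreas.

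Matrix metalloproteinases are zinc-dependent enzymes that are made as inactive precursors and cut collagens, gelatins and other matrix proteins. TIMPs bind and block their active sites. Lysyl oxidases are copper-dependent enzymes that oxidise lysines of collagen and elastin, from which the crosslinks of stiff fibrous tissue form. In pancreas, stellate cells and other fibroblasts are known producers of many of these proteins, and their activity is part of the scarring of chronic pancreatitis.

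Values are deposited log2 expression levels, and a difference is HuR minus control with its standard error (SE) from limma. A gene was called at a Benjamini-Hochberg adjusted p under 0.05 over all 30142 genes. The labels do not say that the arrays came from separate mice, so the p-values measure the spread between these samples, which may be technical. The number of arrays limits the precision. Elavl1 had a mean of 5.99 ± 0.12 (SD, n = 6) in control and of 6.23 ± 0.14 in HuR pancreas, with 5 of 6 HuR arrays above every control. Its difference of 0.24 (SE 0.074) had a limma adjusted p of 0.824 and an exact permutation p of 0.0108. Whether its row detects RNA of the construct is not given in the sources used here. Of 7 measured acinar markers, Cpa1, Prss2, Ctrb1 and Cel stood at 19.93 on all 12 arrays, the top of the scale, and so show presence but no difference. Of the other 3, Bhlha15 differed by -0.64 (SE 0.265), Rbpjl by -0.46 (SE 0.272) and Ptf1a by -0.07 (SE 0.194), with limma adjusted p of 0.836, 0.871 and 0.978. Control replicate 2 and HuR replicate 2 stood apart, each with the lowest mean correlation with its own group, 0.987 and 0.984. The main results that rest on them are given with and without both.

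Upstream sequences of 250 bases were used for 5 of the 10 genes, from RefSeq on GRCm38.p6. Windows on the chromosome of Lox were left out. Those of Mmp3, Mmp14, Timp2 and Timp3 are shown, a choice made after their levels were seen. They lie at chr9:7445572-7445821 (plus strand), chr14:54431348-54431597 (plus strand), chr11:118355412-118355661 (minus strand) and chr10:86300162-86300411 (plus strand), and end at the base before the annotated start. Capitals mark matches to the AP-1 motif TGANTCA, the GC box GGGCGG and the TATA box TATAAA, each searched on both strands.
Mmp3: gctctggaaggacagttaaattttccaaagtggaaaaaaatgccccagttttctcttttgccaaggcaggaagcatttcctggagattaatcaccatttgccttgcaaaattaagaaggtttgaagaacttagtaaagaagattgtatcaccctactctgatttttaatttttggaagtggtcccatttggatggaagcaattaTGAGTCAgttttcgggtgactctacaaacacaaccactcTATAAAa
Mmp14: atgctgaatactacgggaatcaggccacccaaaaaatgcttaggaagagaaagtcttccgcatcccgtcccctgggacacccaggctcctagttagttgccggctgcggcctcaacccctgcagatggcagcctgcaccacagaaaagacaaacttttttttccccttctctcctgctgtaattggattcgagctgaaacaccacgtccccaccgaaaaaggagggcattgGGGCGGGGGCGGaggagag
Timp2: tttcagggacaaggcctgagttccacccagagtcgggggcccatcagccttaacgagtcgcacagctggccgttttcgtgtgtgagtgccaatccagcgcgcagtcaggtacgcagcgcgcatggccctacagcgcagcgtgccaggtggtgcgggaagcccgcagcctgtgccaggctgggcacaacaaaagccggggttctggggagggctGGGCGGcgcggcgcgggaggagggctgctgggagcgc
Timp3: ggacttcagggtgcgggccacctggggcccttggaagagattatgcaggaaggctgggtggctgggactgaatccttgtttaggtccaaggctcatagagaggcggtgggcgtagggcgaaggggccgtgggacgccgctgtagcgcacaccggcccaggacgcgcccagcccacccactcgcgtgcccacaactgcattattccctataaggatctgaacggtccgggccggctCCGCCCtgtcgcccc

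The window of Mmp3 held an AP-1 match at position -46 and a TATA box at position -7, counted from the start, and it was the only one of the 5 with either motif. Of 32851 such windows in RefSeq, 6.75% held the AP-1 motif and 12.4% the TATA box. GC boxes were found at positions -19 and -13 of Mmp14, -37 of Timp2, -15 of Timp3 and -8 of Timp1. The GC box occurs in 32.7% of all windows. The G and C content was 37.6% for Mmp3 and 55.2% for Mmp14, against 68.0% for Timp2 and 65.6% for Timp3, where the median of all windows was 52.4%. These matches are letters in a window and were not tested for use in these samples.

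No matrix gene was called. Of the 9 genes on rows of their own, 4 had a higher and 5 a lower mean in the HuR samples, and their median difference was -0.01, against -0.003 over all genes. Limma called 0% of all 30142 genes, so the lack of a call is shared with every gene tested. At an unadjusted limma p under 0.05 there was 1 of the 9 genes, Lox, where 5.85% of all genes lay. In none of the 9 genes were the groups separate, as they were in 0.299% of all genes. The median size of the difference was 0.19 in these genes and 0.06 over all genes, with median standard errors of 0.189 and 0.08. In these genes the typical difference was thus about as large as its standard error.

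**Figure D1:**
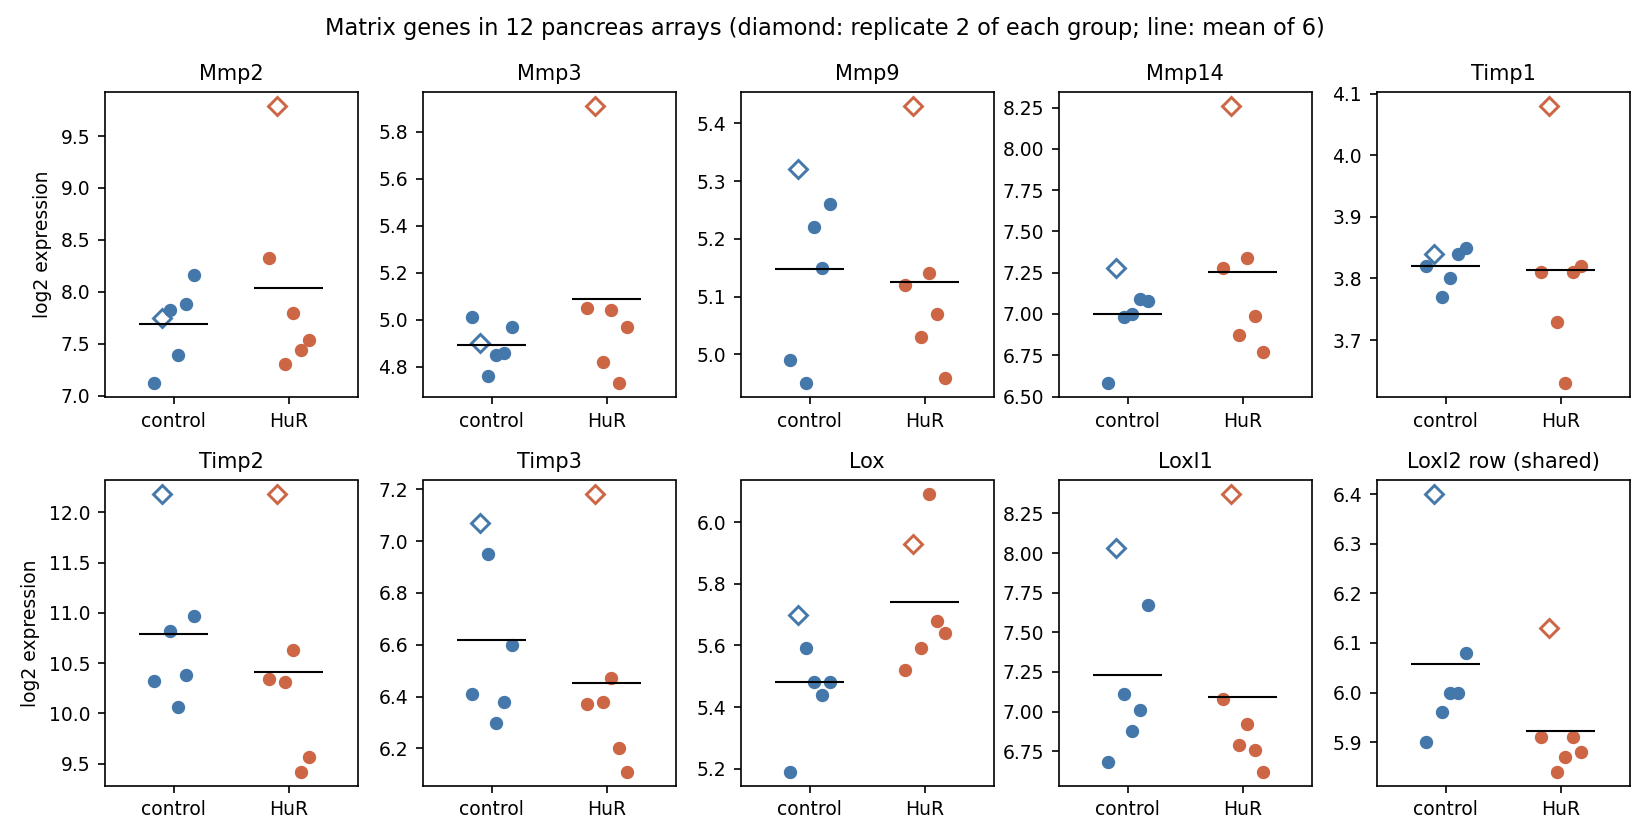
Log2 expression (vertical axes, a scale of its own per gene) of the 10 rows on 6 control and 6 HuR arrays. Circles are single arrays, open diamonds replicate 2 of each group and lines the mean of 6. HuR replicate 2 is the highest of all 12 arrays for 7 of the 9 genes on rows of their own, and the groups overlap in every panel.

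Mmp2, gelatinase A, cuts denatured collagen and basement membrane collagen. In the controls it ran from 7.12 to 8.16 with a median of 7.79, and in the HuR samples from 7.31 to 9.79 with a median of 7.67. The value of 9.79 belonged to HuR replicate 2, next to 8.33 in HuR replicate 1, and 3 of 6 HuR arrays lay below the control median. The mean difference was 0.35 (SE 0.38), or 1.27-fold, with a two-sided p of 0.506 in the exact permutation test and a limma adjusted p of 0.937. Without both arrays that stood apart it was 0.01 (SE 0.237), so the higher mean of Mmp2 rested on HuR replicate 2. The fibroblast proteoglycan gene Lum stood at 9.63 and 10.63 on HuR replicates 1 and 2, against at most 8.00 on the other HuR arrays and 8.72 in the controls, and the matricellular gene Postn at 7.38 and 8.81, against at most 6.00 and 6.40. These are the 2 stellate cell markers with the smallest p of 12, each with a difference of 0.49 and limma adjusted p of 0.936 and 0.924. Without both arrays that stood apart, Lum differed by 0.03 (SE 0.405) and Postn by 0.08 (SE 0.306). Over all 12 arrays, other markers of the stellate cell list had a lower mean in the HuR samples, among them Pdpn at -0.25, Col3a1 at -0.20 and Col1a1 at -0.16.

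Mmp14 encodes a membrane-bound metalloproteinase that activates the precursor of MMP-2 at the cell surface. Its levels were 6.58 to 7.28 with a median of 7.04 in the controls and 6.77 to 8.26 with a median of 7.13 in the HuR samples. Again HuR replicate 2 was highest, and HuR replicate 4 followed at 7.34, just above the highest control. The difference of 0.25 (SE 0.223) had an exact permutation p of 0.381 and a limma adjusted p of 0.915, and it fell to 0.11 (SE 0.134) without both arrays.

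Mmp3, stromelysin-1, degrades a broad set of matrix proteins and activates other metalloproteinases. It was low throughout, at 4.76 to 5.01 with a median of 4.88 in the controls. In the HuR samples it was at 4.73 to 5.91 with a median of 5.01. HuR replicate 2 alone stood above 5.05, and 3 of 6 HuR arrays lay above the highest control. The difference of 0.19 (SE 0.164, exact permutation p = 0.333, limma adjusted p = 0.911) became 0.03 (SE 0.074) without both arrays.

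Mmp9, gelatinase B, is abundant in neutrophils and macrophages. Its controls lay between 4.95 and 5.32 with a median of 5.18, and its HuR arrays between 4.96 and 5.43 with a median of 5.10. The 12 values spanned only 0.48, and 5 of 6 HuR arrays were below the control median. The difference was -0.02 (SE 0.086, exact permutation p = 0.801, limma adjusted p = 0.984). Neutrophil markers, of which 7 of 10 lay below the median row, had a mean level of 4.28 to 4.37 in the controls and 4.26 to 4.72 in the HuR samples. They stood at 4.32 on control replicate 2 and 4.31 on HuR replicate 2, the arrays on which Mmp9 was highest in each group. Macrophage markers had mean levels of 6.94 to 8.58 in the controls and 7.61 to 9.85 in the HuR samples, and these same arrays held the highest value of each group. All 10 macrophage markers had a higher mean with HuR, by a median of 0.80, with 0 called by limma. At an unadjusted limma p under 0.05 there were 3 of 10, where 5.85% of all genes lay. Without both arrays the median was 0.65 and 6 of 10 lay under 0.05, where 7.07% of all genes did. The part of either cell type in the level of Mmp9 was not tested.

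**Figure D2:**
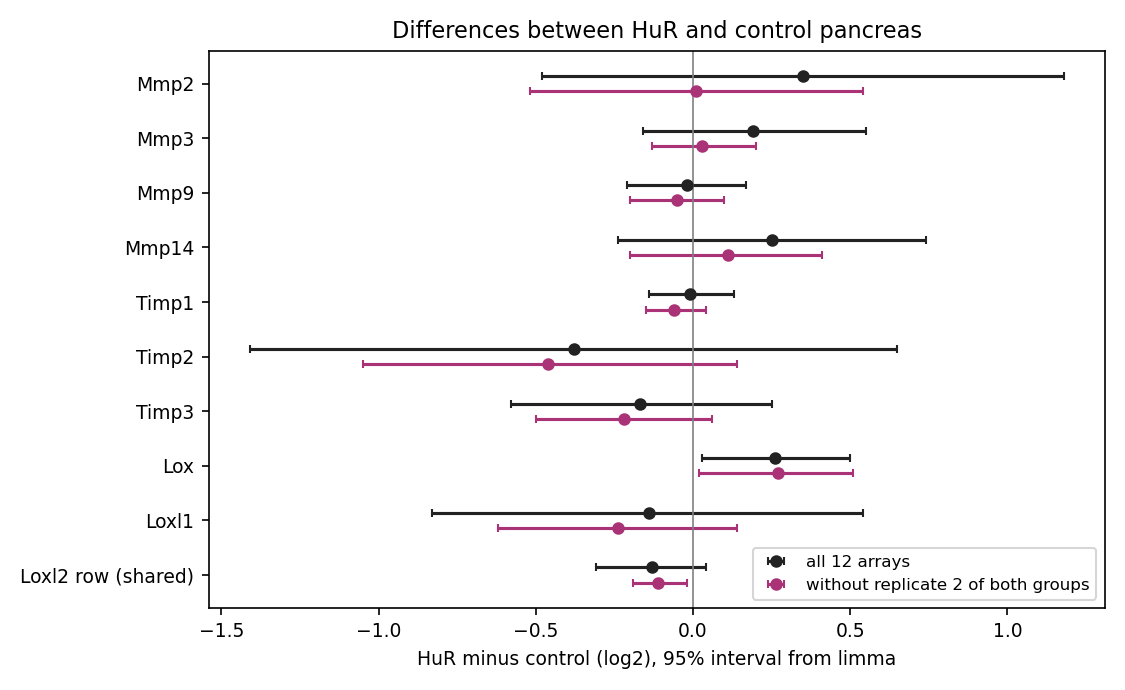
HuR minus control on the log2 scale (horizontal axis) with 95% intervals from limma for the 10 rows, over all 12 arrays (black) and without replicate 2 of both groups (purple). Over all arrays the interval lies above 0 for Lox alone, from 0.03 to 0.50, and those of Mmp2, Mmp3 and Mmp14 narrow around values near 0 without both arrays.

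Among the inhibitors, all 3 had a lower mean in the HuR samples. Timp2, which blocks metalloproteinases and also takes part in the activation of MMP-2 by MMP-14, ran from 10.06 to 12.18 with a median of 10.60 in the controls. In the HuR samples it ran from 9.42 to 12.18 with a median of 10.33. Both replicates numbered 2 stood at 12.18, over 1 unit above all other arrays, and the lowest values were 9.42 and 9.57 in HuR replicates 5 and 6. Timp2 therefore spanned 2.77 over the 12 arrays, the widest range of the 9 genes. The difference was -0.38 (SE 0.472, exact permutation p = 0.459, limma adjusted p = 0.947). Without both arrays it was -0.46 (SE 0.265, 95% interval -1.05 to 0.14). With single arrays left out, the lowest value was -0.734, where HuR replicate 2 was dropped, and the highest -0.101, where control replicate 2 was.

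Timp3 encodes the inhibitor that stays bound to matrix and also blocks ADAM proteases. It lay at 6.30 to 7.07 with a median of 6.51 in the controls and at 6.11 to 7.18 with a median of 6.38 in the HuR samples. The highest were again replicates 2 of both groups, followed by control replicate 3 at 6.95, while 5 of 6 HuR arrays were below the control median. Its difference of -0.17 (SE 0.189) had an exact permutation p of 0.411 and a limma adjusted p of 0.939, and was -0.22 (SE 0.125) without both arrays.

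Timp1, an inhibitor that is induced in many injured and fibrotic tissues, was not clearly above background here. Its level was 3.77 to 3.85 with a median of 3.83 in the controls and 3.63 to 4.08 with a median of 3.81 in the HuR samples. Its mean lay at the 13.2 percentile of all rows. The 23 background rows had a median of 3.74, with row means from 3.11 to 6.01. Mmp3, Mmp9, Lox and the row that Loxl2 shares also had means within that range. The difference of Timp1 was -0.01 (SE 0.062, exact permutation p = 0.896, limma adjusted p = 0.998). At this level a change of Timp1 could not be measured well, and HuR replicate 2 at 4.08 was the one array above 3.85.

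Lox, the founding lysyl oxidase, had the smallest p of the 9 genes. Its controls were at 5.19 to 5.70 with a median of 5.48, and its HuR arrays at 5.52 to 6.09 with a median of 5.66. Its mean over all arrays, 5.61, lay within the 3.11 to 6.01 of the background row means. All 6 HuR arrays lay above the control median, and HuR replicates 4 and 2, at 6.09 and 5.93, above every control. The difference was 0.26 (SE 0.107), or 1.20-fold, with a 95% interval from 0.03 to 0.50. The exact permutation p was 0.0411 and the unadjusted limma p 0.0326, a value that 1164 other genes undercut. The limma adjusted p was 0.836, so Lox did not pass over all genes. Unlike those of Mmp2 and Mmp3, its difference was as large without both arrays that stood apart, at 0.27 (SE 0.111, exact permutation p = 0.0238), where 7.07% of all genes had an unadjusted p under 0.05. With single arrays left out it was 0.192 to 0.304. Its unadjusted limma p rose above 0.05 without control replicate 1 (0.0738), control replicate 5 (0.0557), HuR replicate 2 (0.0711) or HuR replicate 4 (0.0694), and with array weights (0.0628). Without control replicate 4 it was 0.05 after rounding and did not lie under that threshold.

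Loxl1, which crosslinks elastin, lay at 6.68 to 8.03 with a median of 7.06 in the controls and at 6.62 to 8.37 with a median of 6.86 in the HuR samples. HuR replicate 2 and control replicate 2 were the highest arrays, then control replicate 6 at 7.67, and 4 of 6 HuR arrays were below the control median. The difference was -0.14 (SE 0.313, exact permutation p = 0.701, limma adjusted p = 0.974), or -0.24 (SE 0.17) without both arrays. The row that Loxl2 shares with 2 other genes was at 5.90 to 6.40 in the controls and 5.84 to 6.13 in the HuR samples, with medians of 6.00 and 5.89. It differed by -0.13 (SE 0.081, exact permutation p = 0.141, limma adjusted p = 0.871). Without both arrays it differed by -0.11 (SE 0.038, exact permutation p = 0.0238, limma adjusted p = 0.636), with 3 of all 6 HuR arrays below every control.

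Single arrays lay far from the others in several of these genes. HuR replicate 2 was the highest of 12 arrays in 7 of the 9 genes, and it was the highest array in 16.0% of all genes. Against the mean of the 10 other arrays, which leaves out both replicates numbered 2, it was raised in 9 of 9 genes by a median of 1.0, from 0.29 to 2.11. Control replicate 2 was raised in 8 of 9, by a median of 0.23 and by up to 1.90. The arrays were not alike in which genes they raised. Against the other arrays of its own group, control replicate 2 was higher by 1.67 for Timp2 and 0.95 for Loxl1 but by 0.08 for Mmp2 and 0.01 for Mmp3. HuR replicate 2 was higher by 2.13, 1.54, 2.11 and 0.99 for the same genes.

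**Figure D3:**
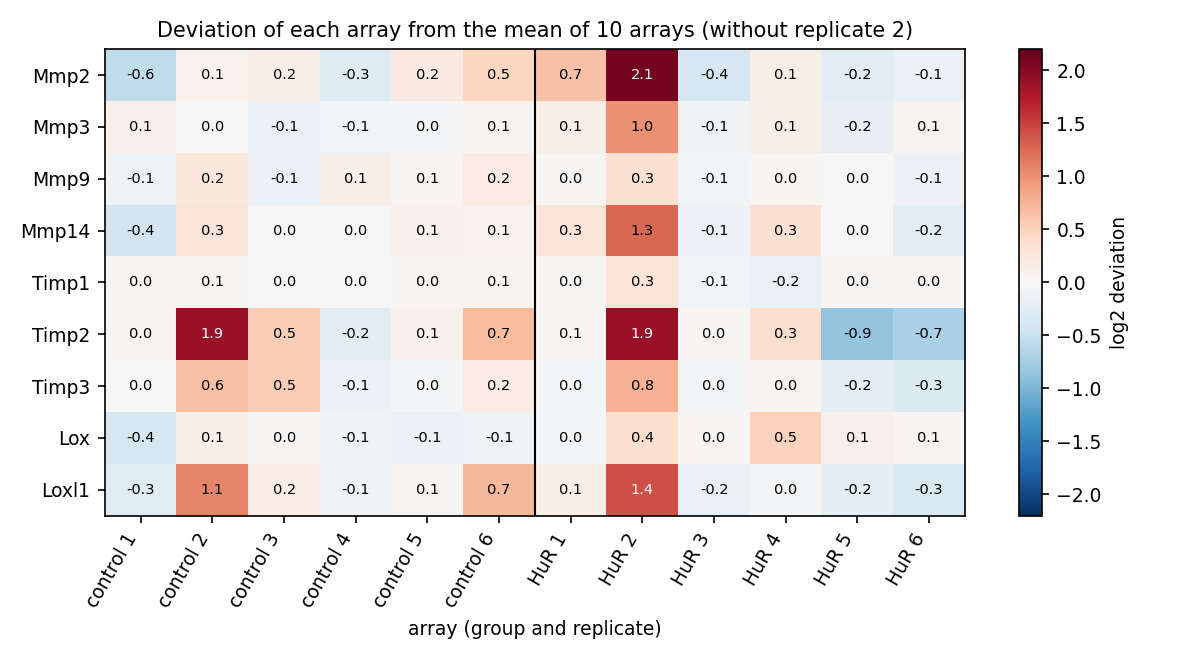
Deviation of each of the 12 arrays (columns) from the mean of 10 arrays without replicate 2 of both groups, on the log2 scale, for the 9 genes on rows of their own (rows). Red is higher and blue lower. HuR replicate 2 is red in every row, control replicate 2 mainly for Timp2, Timp3 and Loxl1, and HuR replicates 5 and 6 are lowest for Timp2.

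Cell type markers moved with these arrays. Stellate cell and fibroblast markers, of which 12 of 13 were measured, had a mean level of 7.31 to 8.26 in the controls and 7.30 to 8.95 in the HuR samples. Control replicate 2 was at 8.26 and HuR replicate 2 at 8.95, and the other arrays reached 7.88 and 8.01. Of these 12 genes 8 were higher and 4 lower in the HuR samples, 0 were called by limma and 0 had an unadjusted p under 0.05. Their median difference was 0.06, and 0.0 without both replicates numbered 2. Mesothelial markers stood at 8.42 on control replicate 2 and 7.92 on HuR replicate 2, against at most 7.49 and 7.17 on the others. Their range was 6.70 to 8.42 in the controls and 5.97 to 7.92 in the HuR samples, and HuR replicates 5 and 6 were lowest at 5.97 and 5.98, as they were for Timp2.

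All 6 measured mesothelial markers had a lower mean in the HuR samples, with a median difference of -0.61, and 0 were called. Without both replicates numbered 2 that median was -0.6. B cell and lymph node markers reached 9.46 on control replicate 2 and 8.91 on HuR replicate 2, against at most 7.12 and 7.91 elsewhere. Every one of the 7 measured adipocyte markers was higher on average with HuR, by a median of 1.26, with 0 called by limma. Their mean level was 6.43 to 9.25 in the controls and 7.19 to 10.85 in the HuR samples. At an unadjusted limma p under 0.05 there were 2 of 7, where 5.85% of all genes lay. Without both replicates numbered 2 the median was 0.99 and 6 of 7 lay under 0.05, where 7.07% of all genes did. Endothelial markers had a mean level of 6.70 to 7.02 in the controls and 6.70 to 7.03 in the HuR samples. Islet markers were lower in 7 of 7 and duct markers in 4 of 5 measured genes. Of the islet markers, Ins2 had the same value on 10 arrays, Gcg on 6 and Iapp on 3, which limits what their direction shows. Krt19 is in both the duct and the mesothelial list, so those counts share a gene. The part of any of these cells in the levels of the matrix genes was not tested. In RNA of whole pancreas, fewer cells of a type and less RNA per cell cannot be told apart.

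**Figure D4:**
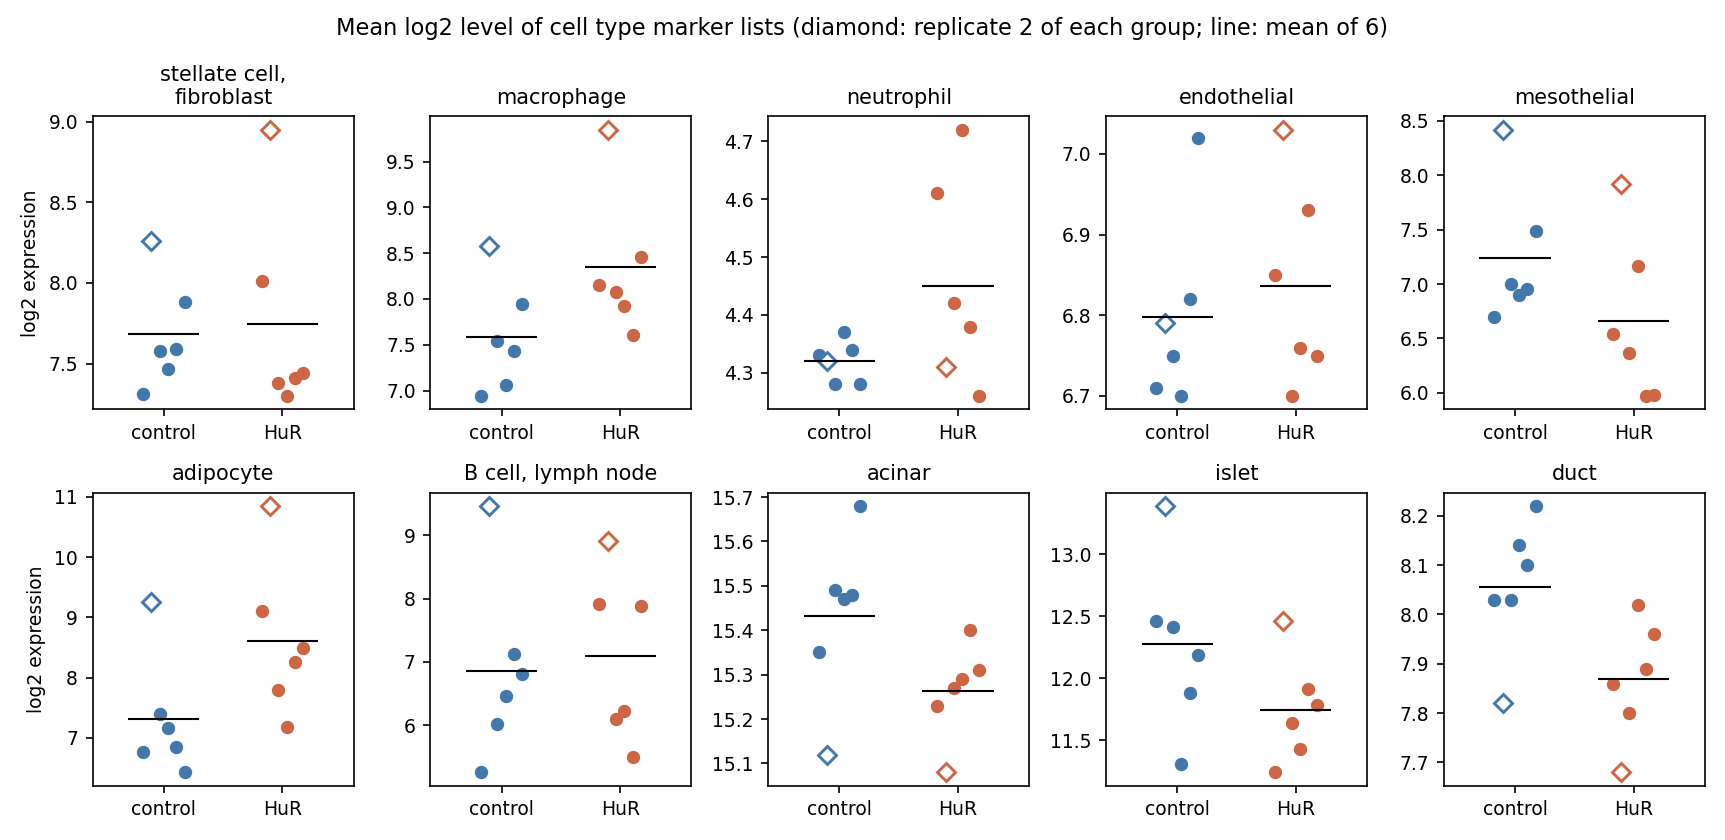
Mean log2 level of 10 cell type marker lists (vertical axes, a scale of its own per list) in 6 control and 6 HuR arrays. Circles are arrays, open diamonds replicate 2 of each group and lines the mean of 6. The replicates numbered 2 are the highest of their groups for stellate cell, macrophage, mesothelial, adipocyte, lymph node and islet markers, and the lowest for duct markers and for acinar markers, 4 of which are at the top of the scale.

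Genes of the list varied together over the arrays. Pearson's r was above 0 in 35 of the 36 pairs that the 9 genes form, with a median of 0.66, and 14 pairs passed at an adjusted permutation p under 0.05 over the 36. With Spearman's rho 6 pairs passed. Without both arrays that stood apart the median r was 0.20 and 26 pairs were above 0, so much of the joint variation rested on those arrays. Pairs of other genes were not counted in this way, so the joint variation is not shown to be particular to this list.

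The pair with the highest correlation was Timp2 and Timp3, with r = 0.94 (permutation p = 2e-05, adjusted 0.00072) and rho = 0.92 (permutation p = 0.00012, adjusted 0.00342) over 12 arrays. Without the 2 arrays farthest from the median of Timp2 r was 0.83. Timp2 and Loxl1 had r = 0.92 (permutation p = 8e-05, adjusted 0.00144) and rho = 0.90 (permutation p = 0.00019, adjusted 0.00342), and 0.74 without the same arrays. Mmp2 and its activator gene Mmp14 had r = 0.93 (permutation p = 0.00042, adjusted 0.00378) and rho = 0.71 (permutation p = 0.0124, adjusted 0.0636). Without HuR replicate 2 and control replicate 1, the farthest for Mmp2, r was 0.61. The correlation of Mmp2 with Mmp3, r = 0.87, came with a rho of 0.46 (permutation p = 0.0133 and 0.134, adjusted 0.037 and 0.255) and fell to 0.60 without those arrays and to 0.33 without both replicates numbered 2.

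**Figure D5:**
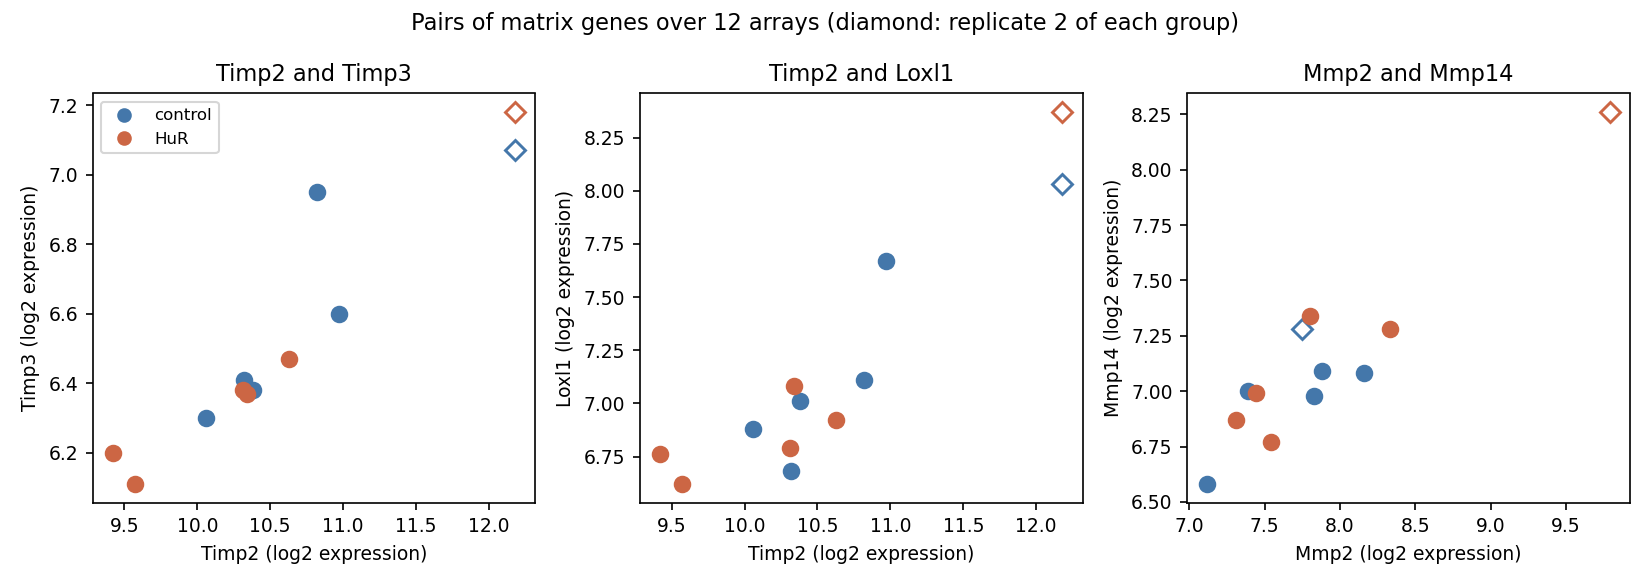
Log2 expression of Timp2 against Timp3 and Loxl1, and of Mmp2 against Mmp14, over 12 arrays. Circles are arrays, blue for control and orange for HuR, and open diamonds are replicate 2 of each group. Both diamonds lie at the upper end for Timp2, while for Mmp2 and Mmp14 HuR replicate 2 alone lies far from the rest.

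The change of each gene relative to each other gene was compared after their values had been seen. Mmp2 relative to Timp2 was 0.73 higher in the HuR samples, at a mean log2 difference between the 2 rows of -3.10 in the controls and -2.37 in the HuR samples. Its exact permutation p was 0.0433, or 0.195 after adjustment over the 36 pairs. Mmp14 relative to Timp3 was 0.42 higher (exact permutation p = 0.0238, adjusted 0.178), and Lox relative to Timp3 was higher by the 0.43 that Timp3 lost relative to it (mean 1.14 in the controls and 0.71 in the HuR samples, exact permutation p = 0.0303, adjusted 0.178). Of the 36 pairs 8 had an unadjusted p under 0.05 and 0 passed after adjustment. The smallest p was that of Mmp9 relative to Lox, at -0.28 (exact permutation p = 0.0216, adjusted 0.178). Also under 0.05 were Timp1 relative to Lox at -0.27 and Mmp3 relative to Timp3 at 0.36. The same held for Mmp2 and Mmp14 relative to Loxl1, at 0.49 and 0.39. Without both arrays that stood apart, Mmp2 relative to Timp2 differed by 0.46 (exact permutation p = 0.119) and Mmp14 relative to Timp3 by 0.33 (exact permutation p = 0.0873). Timp3 relative to Lox then differed by -0.49 and Mmp14 relative to Loxl1 by 0.35, both with an exact permutation p of 0.0159 before adjustment. A difference in these balances between the genotypes was thus not shown over the 36 pairs.

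The genes with the most similar pattern were sought among 11968 genes above the median row, by Pearson's r over the 12 arrays. For Timp2 they were the fibulin-family matrix gene Efemp1 (r = 0.99, rho = 0.92), the collagen receptor kinase gene Ddr2 (r = 0.98, rho = 0.94) and Gfpt2, an enzyme gene of hexosamine synthesis (r = 0.98, rho = 0.92). Without both arrays that stood apart their r was 0.97, 0.94 and 0.93. Loxl1 was closest to the syndecan gene Sdc2, to Isoc1 and to the tetraspanin gene Cd81, each at r = 0.98 and at 0.93 to 0.96 without both arrays. Timp3 followed Prkcsh (r = 0.97), Plxnb2 and, as Timp2 did, Efemp1 (both r = 0.94).

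Mmp2 was closest to Antxr2, a receptor that binds matrix proteins (r = 0.97), Sash1 (0.96) and the mitochondrial carbonic anhydrase gene Car5b (0.95). Mmp14 was closest to the neuropilin gene Nrp2 and to Tbc1d2b, both at r = 0.96, and Pank3 at 0.95. For Lox they included the splicing factor gene Luc7l3 at r = 0.88 and Frrs1 at 0.87. Those of Mmp9 were the actinin gene Actn4, Csrp2 and Adamtsl1 at r = 0.90 to 0.92. For Timp1 they were Wnt5a, Hltf and Gstm4 at 0.93 to 0.96. The neighbours of Mmp3, Brms1l, Aspa and Cdkn3, had r = 0.95 to 0.96 but rho = 0.64 to 0.79, and r = 0.52 to 0.75 without both arrays. All these genes were chosen for their likeness over the same arrays, so their values are descriptions.

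Around these genes, 5 lists of other proteases, inhibitors, crosslinking genes and matrix proteins held 69 measured genes. In the HuR samples 29 had a higher and 40 a lower mean, with a median difference of -0.01, and limma called 0. At an unadjusted p under 0.05 there were 2 of 69, both higher, against 5.85% of all genes. HuR replicate 2 was the highest array in 34 of the 69.

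Mmp7, matrilysin, a secreted protease of epithelial cells, was the gene of these lists in which the groups did not overlap. It was at 4.20 to 4.53 with a median of 4.37 in the controls and at 4.64 to 6.77 with a median of 4.71 in the HuR samples. All 6 HuR arrays lay above every control, where 0.299% of all genes had groups that did not overlap in either direction. The exact permutation p was 0.00216, the smallest that 6 against 6 arrays can give. The value of 6.77 was that of HuR replicate 2, alone. The difference of 0.67 (SE 0.322) had an unadjusted limma p of 0.0594 and an adjusted p of 0.857. Without both arrays it was 0.33 (SE 0.068, limma adjusted p = 0.463). The control median lay below the median row of 4.516, and the other 5 HuR arrays were at most 4.84.

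Of 18 measured other metalloproteinases, 10 were higher and 8 lower, and 13 lay below the median row. Mmp12, the macrophage elastase, differed by 0.06 (SE 0.033) at a low level of 4.53 ± 0.05 (SD, n = 6) against 4.59 ± 0.03. ADAM and ADAMTS proteases were higher in 8 and lower in 7 of 15 genes, with Adam8, a protease of activated leukocytes, at 0.10 (SE 0.037) and Adamts1, which cleaves proteoglycans, at -0.10 (SE 0.049). Their adjusted limma p was 0.824 and 0.858.

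In the plasminogen system and among other inhibitors, 4 of 11 were higher and 7 lower, with a median difference of -0.0. The cysteine protease inhibitor gene Cst3 had a mean of 14.92 ± 0.14 (SD, n = 6) in control and of 15.08 ± 0.04 in HuR pancreas. It was 0.16 higher (SE 0.06, limma adjusted p = 0.824). On 3 arrays it had an identical value, below its highest of 15.14, and what this did to its difference was not tested. Plg, plasminogen, differed by -0.07 (SE 0.067).

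Crosslinking and assembly genes were lower in 10 of 13, but with a median difference of only -0.02. P4hb, Loxl3 and P4ha2 count as lower at differences of -0.0, and P4hb had the same value on 8 arrays. The proteoglycan gene Fmod was at -0.28 (SE 0.23) and Bmp1, the procollagen C-proteinase gene, at -0.14 (SE 0.152). Without both arrays Bmp1 differed by -0.19 (SE 0.073, limma adjusted p = 0.655). Among matrix proteins 8 of 12 were lower and 4 higher, with a median difference of -0.05. The basement membrane collagens Col4a2 and Col4a1 were at 0.08 (SE 0.05) and 0.07 (SE 0.077). The mean level of the matrix proteins was 7.31 to 8.41 in the controls and 7.08 to 8.84 in the HuR samples, and both replicates numbered 2 were the highest of their group. None of these genes passed over all genes with limma.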

How the data were processed

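Biotin-labelled cDNA from pancreas RNA was hybridised to 1 array per sample, per the labels' protocols. The deposited values are RMA expression values, per the labels, and their range is that of log2 levels. RMA is a method that as a rule pulls arrays to a common distribution. Its settings: not given in the sources used here. Affymetrix Expression Console 1.4 and Transcriptome Analysis Console 3.1 are named in the submitters' processing notes, with no genome build. Of 72688 rows, 6732 control rows were left out. Of the rest, 30604 had 1 gene symbol, 2146 several and 33206 none in the platform annotation, and 827 symbols were updated through a RefSeq table of GRCm38.p6. The row with the highest mean stood for a gene.

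Groups came from the sample titles. HuR and control were compared over 30142 genes with limma 3.58.1 in R 4.3.3 (lmFit and eBayes, two-sided, Benjamini-Hochberg over all genes), a fit tested on simulated data. Exact permutation tests used all 924 assignments of 6 against 6 arrays, or 252 of 5 against 5, and correlations 100000 permutations. The genes and lists were chosen with earlier results of these data known. Named genes were the 10 listed ones, the 2 of each other matrix list with the smallest p, and the 3 nearest in pattern to each listed gene. One gene of that last group is not reported here. Predicted genes, clones, small RNAs, antigen receptor segments and genes with the same value on 3 or more arrays were left out of that search. Lum and Postn are the 2 stellate cell markers with the smallest p. Alternatives were the mean of a gene's rows, only genes above the median row, other normalizations, variance models, array weights, the replicate number as a block, arrays left out and a looser threshold.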

Additional observations from a re-analysis of the deposited data

Results flagged for a closer look

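Each group of 6 arrays was tested for a single array far from the rest in each of the 10 rows, 20 tests in all, of which chance flags about 1 in 20. In 5 of them an array lay far from its group. HuR replicate 2 stood at 5.91 for Mmp3, where the next HuR array was at 5.05. It stood at 7.18 for Timp3, next to 6.47, and at 8.37 for Loxl1, next to 7.08. On the row that Loxl2 shares it stood at 6.13, next to 5.91, and control replicate 2 at 6.40, next to 6.08. Stellate cell, mesothelial, adipocyte and lymph node markers were also highest in their group on these arrays, and their part in these levels was not tested.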

How the results depend on the processing

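No matrix gene was called under any of the 21 alternatives, which included a replicate block, where the count was 0 of 9 and Lox differed by 0.26 (limma adjusted p = 0.452). The labels do not say that replicate numbers pair the arrays. With the group mean of each gene subtracted, same-numbered arrays correlated over genes at -0.079 to 0.636. The 0.636 was that of the replicates numbered 2, the arrays that stood apart, and the other pairs reached at most 0.177. These correlations of deviations were above 0.1 in 3 of 6 pairs, so a pairing was neither assumed nor excluded. The block lowered the SE of Timp2 from 0.472 to 0.254, and leaving out both replicates numbered 2 without a block gave 0.265. Over all genes 0 to 1 were called with single arrays left out. The 1 gene, Gm7003, was called without HuR replicate 2, which also left Mmp2 reversed at -0.004, while its differences ran from -0.004 to 0.493. Mmp9 turned to 0.01 without control replicate 2 or HuR replicate 6 and to 0.0 without control replicate 6, with a range of -0.084 to 0.01. Timp1 turned to 0.014 after quantile normalization and to 0.008 and 0.029 without HuR replicate 3 or 4, with a range of -0.061 to 0.029. Loxl1 turned to 0.017 without control replicate 2, with a range of -0.399 to 0.017. Mmp3, Mmp14, Timp2, Timp3 and Lox kept their direction under every alternative, and dropping each array in turn gave 0.03 to 0.266, 0.05 to 0.347, -0.734 to -0.101, -0.313 to -0.078 and 0.192 to 0.304. Timp1 lay under the median row and has no value with that filter. The causes were not tested.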
